A study of Mus musculus with 4 samples.

Results

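Integrins are adhesion receptors made of an alpha and a beta subunit, and this account follows the genes of 10 subunits in myeloid cells of the mouse gut. The members are Itgax, Itgam, Itgal, Itgae, Itga4 and Itgav for alpha chains and Itgb2, Itgb7, Itgb1 and Itgb5 for beta chains. They were taken by symbol: every probe set of the array whose only gene in the platform's probe table is a member was used. All 10 were found, with 22 probe sets, among 12393 genes with 20380 such probe sets on the array, and no probe set named a member together with another gene. For 6 members there was 1 probe set, and for Itga4, Itgb1, Itgav and Itgb5 there were 3, 6, 3 and 4.

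Cells were sorted from the large-intestinal lamina propria, the layer beneath the gut epithelium, of C57BL/6J mice with no stated treatment, genotype change or age. The CX3CR1high cells, labelled as macrophages, carried CD11c, CD11b and much of the fractalkine receptor CX3CR1. The CX3CR1- cells had CD11c and CD11b but lacked CX3CR1, the CD11b+ cells carried CD11b without CD11c, and the CD11chigh DCs (dendritic cells) carried much CD11c without CD11b. Each population was measured on 1 array, so no replicate check or test exists, and a ratio is only as precise as 2 arrays allow. The labels do not say from how many mice the cells came. Since CD11c and CD11b are the proteins of Itgax and Itgam, those genes check the sort and are no finding between populations. The sample title of the DC array is CD103, the protein of Itgae, so Itgae may stand in the same position.

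An integrin alpha chain reaches the cell surface only with its beta chain. In leukocytes Itgb2 (CD18) pairs with Itgal (CD11a), Itgam (CD11b) and Itgax (CD11c), which bind ICAM molecules and complement fragments. Itgb7 pairs with Itgae to bind E-cadherin of epithelium and with Itga4 to bind MAdCAM-1 of gut vessels, Itgb1 pairs with Itga4 and many other alpha chains, and Itgb5 pairs with Itgav to bind vitronectin and to take part in uptake of dying cells. On gut DCs, CD103 is the usual marker of the cells that carry antigen to the draining lymph nodes.

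The promoters of 4 members are shown because their signals, given below, follow different patterns over the populations, with Itgb7 and Itgb5 in reversed order. Itgam and Itgax are the sort genes and lie next to each other on the chromosome with 0 protein-coding genes between them, and Itgb7 and Itgb5 are the beta chains that differed most between CX3CR1high cells and DCs. Each sequence is the 250 bases before the annotated start, 5′ to 3′ on the gene's strand, from RefSeq (GRCm38.p6), and the table held 7 of the 10 members. Itgam lies on the plus strand at chr7:128062390-128062639, Itgax on the plus strand at chr7:128129300-128129549, Itgb7 on the minus strand at chr15:102231936-102232185 and Itgb5 on the plus strand at chr16:33829415-33829664. Capitals mark the purine-rich letters GAGGAA, a PU.1-type form of the ETS site, or the other-strand form TTCCTC. The shorter ETS core GGAA, or TTCC, was neither marked nor counted.
Itgam: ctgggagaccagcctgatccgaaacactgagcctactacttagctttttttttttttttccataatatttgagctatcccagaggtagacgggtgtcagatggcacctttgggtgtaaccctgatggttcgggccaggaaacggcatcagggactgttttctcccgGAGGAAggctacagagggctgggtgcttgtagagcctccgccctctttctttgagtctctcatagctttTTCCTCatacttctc
Itgax: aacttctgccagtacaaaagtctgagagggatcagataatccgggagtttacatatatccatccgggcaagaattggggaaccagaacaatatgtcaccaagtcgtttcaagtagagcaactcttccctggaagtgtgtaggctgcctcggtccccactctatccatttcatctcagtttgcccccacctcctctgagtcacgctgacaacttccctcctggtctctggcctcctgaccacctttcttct
Itgb7: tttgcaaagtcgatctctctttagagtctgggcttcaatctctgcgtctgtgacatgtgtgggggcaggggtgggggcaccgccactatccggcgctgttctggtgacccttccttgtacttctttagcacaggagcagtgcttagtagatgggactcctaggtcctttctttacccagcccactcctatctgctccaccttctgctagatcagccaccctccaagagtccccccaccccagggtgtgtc
Itgb5: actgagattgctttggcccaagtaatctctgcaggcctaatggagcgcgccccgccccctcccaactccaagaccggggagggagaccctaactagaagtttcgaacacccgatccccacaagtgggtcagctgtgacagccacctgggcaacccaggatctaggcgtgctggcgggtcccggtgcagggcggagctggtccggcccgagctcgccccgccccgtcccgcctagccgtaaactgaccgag
The Itgam window held 2 matches, beginning 84 and 15 bases before the start, and the 3 other windows held these letters at no position. Among the 7 members with a window, 3 had a match, the others being Itgav with 2 and Itgb1 with 1, against 23.3% of all 32851 promoter windows of this length. A match is a description of the letters and not a binding site.

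Signals are linear intensities on the authors' scale, which set a trimmed mean of 500 on every array. The median over all probe sets was 109.7, 103 and 110.2 in the CX3CR1high cells, CX3CR1- cells and CD11b+ cells and 88.5 in the DCs. The floor below which a signal was taken as not measured was the pooled median, 103, and 52.7% to 57.2% of genes reached it. A ratio against a signal under the floor is a lower bound. Control probe sets for Gapdh had 3′ over 5′ signal ratios, which grow as RNA is less intact, of 1.08, 3.40, 2.17 and 0.791 in the same order, so the CX3CR1- and CD11b+ arrays stood above both others. Between probe sets of the same gene, the SD of log2 ratios ran from 0.31 to 0.52 over the 6 pairs of arrays, a factor of 1.24 to 1.43. It leaves out differences between mice and between sorts. Against their defining markers the labels held in part. Macrophage markers summed to a signal of 75373 in the CX3CR1high cells, 32828 in the CX3CR1- cells, 46888 in the CD11b+ cells and 9330.1 in the DCs. Of 6 measured DC markers, 4, 5, 3 and 6 reached the floor in the same order. The CX3CR1- cells had signals for the DC genes Flt3 (837, against 2579 in the DCs) and Ccr7 (7927, against 8091) as well. Xcr1 of the same list was under the floor in the CX3CR1- cells (42.1) and above it in the DCs (658). Cx3cr1, a gene of the sort, had signals of 1499 in the CX3CR1high cells, 291 in the CX3CR1- cells, 638 in the CD11b+ cells and 65.2 in the DCs, so it was above the floor on the array labelled CX3CR1-.

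The leukocyte beta chain Itgb2 (Entrez 16414) had a high signal everywhere. Its signals were 8877 in the CX3CR1high cells, 7682 in the CX3CR1- cells, 11382 in the CD11b+ cells and 8699 in the DCs. The 4 signals lay within 1.48-fold of each other. The alpha chains that share it had other profiles, given next. Itgam and Itgax are genes of the sort and Itgal lay close to the floor, so this contrast is no finding.

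Itgam (Entrez 16409), the CD11b chain, had signals of 691 in the CX3CR1high cells, 408 in the CX3CR1- cells, 514 in the CD11b+ cells and 45.9 in the DCs. The 3 populations sorted as CD11b-positive were within 1.69-fold of each other, and the DCs sorted as CD11b-negative were under the floor. Ratios over the DCs were at least 6.71-fold, at least 3.96-fold and at least 5.0-fold in that order. Itgax (Entrez 16411), the CD11c chain, had signals of 1826 in the CX3CR1high cells, 8412 in the CX3CR1- cells, 1864 in the CD11b+ cells and 5893 in the DCs. The CX3CR1- cells and the DCs were high, 1.43-fold apart, and the CX3CR1high cells and the CD11b+ cells were low, 1.02-fold apart. The CX3CR1high cells, sorted as CD11c-positive, and the CD11b+ cells, sorted as CD11c-negative, thus had the same Itgax signal within the spread between probe sets. In the CX3CR1high cells Itgax was 4.61-fold lower than in the CX3CR1- cells and 3.23-fold lower than in the DCs. Cell surface CD11c is a protein measure, and no protein was measured on the arrays.

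Itgal (Entrez 16408), the CD11a chain of LFA-1, which holds leukocytes on ICAM molecules, lay close to the floor. Its signals were 114 in the CX3CR1high cells, 176 in the CX3CR1- cells, 235 in the CD11b+ cells and 99.0 in the DCs. It was 2.07-fold lower in the CX3CR1high cells than in the CD11b+ cells and at least 2.28-fold higher in the CD11b+ cells than in the DCs. The second of these fell short of 2-fold when arrays were set to equal medians (log2 ratio 0.93) or quantile-normalized (0.95), and the first with a pseudocount in place of the floor (-0.92). The summed signal of neutrophil markers was highest in the CD11b+ cells, as were Itgal and Itgb2. It was 2165, 701, 9192 and 360.0 in the same order, with 3, 1, 6 and 0 of 9 measured markers at or above the floor. The part of neutrophil RNA in the Itgal and Itgb2 signals was not tested.

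**Figure D1:**
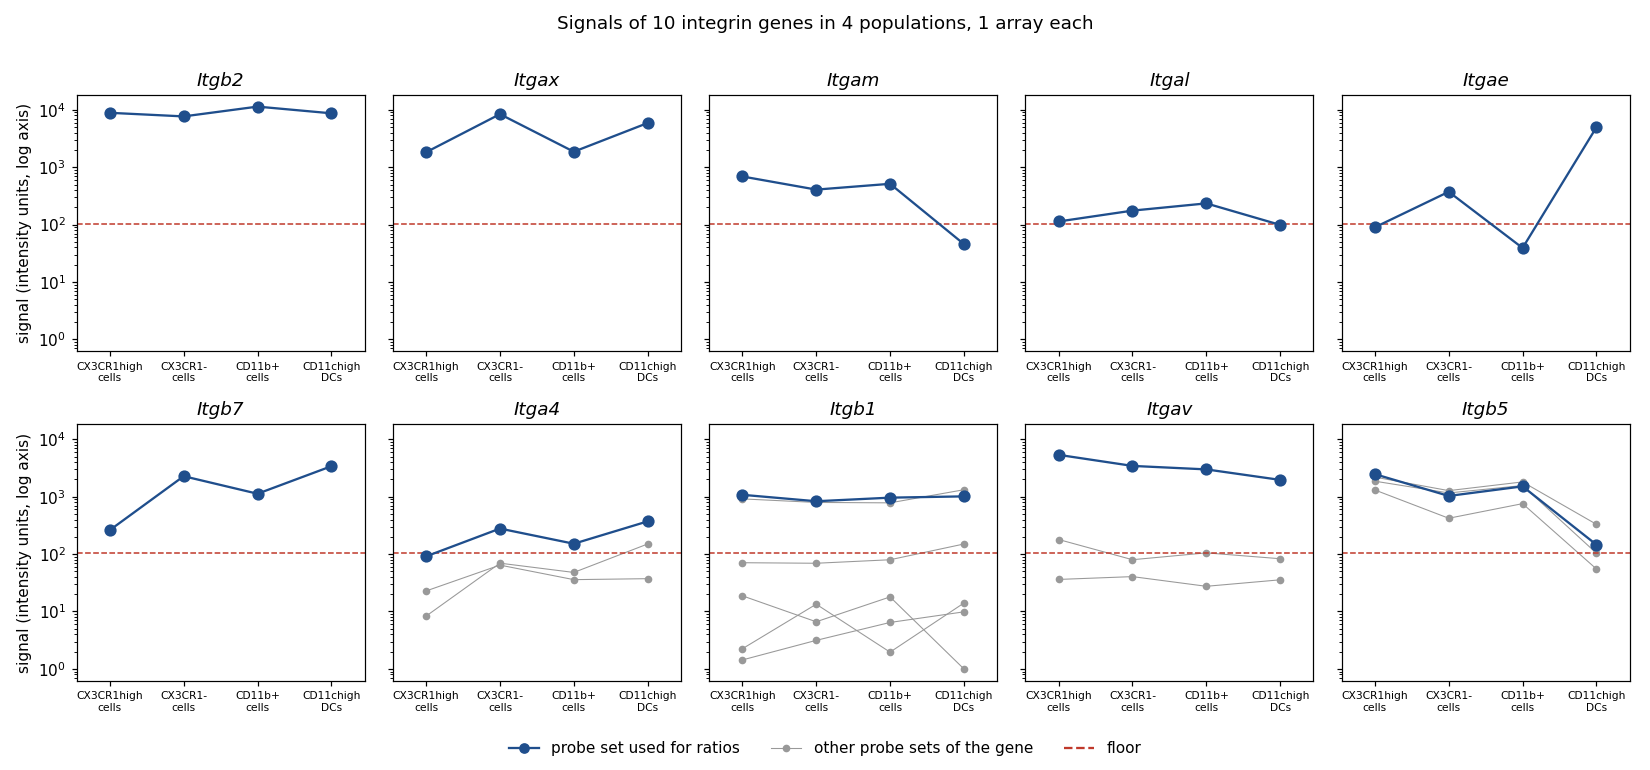
Signal in intensity units on a log axis for each of the 10 integrin genes in 4 populations, 1 array each; blue points are the probe set used for ratios, grey points the gene's other probe sets, lines join the points of a probe set, and the dashed red line is the floor of 103. Itgb2 and Itgb1 are level over the populations, Itgae reaches 4962 in the DCs, and all 4 probe sets of Itgb5 are lowest in the DCs.

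Itgae, Itgb7 and Itga4, the chains of the mucosal integrins, were highest in the DCs and second highest in the CX3CR1- cells. Itgae (Entrez 16407), the CD103 chain that retains cells at epithelium, had signals of 90.0 in the CX3CR1high cells, 374 in the CX3CR1- cells, 39.2 in the CD11b+ cells and 4962 in the DCs. The CX3CR1high and CD11b+ cells were under the floor, the CX3CR1- cells above it, and the DCs far above all. Relative to the DCs, Itgae was 13.3-fold lower in the CX3CR1- cells and, in the CX3CR1high and the CD11b+ cells, lower by a factor of at least 48.2. It was at least 3.63-fold lower in the CX3CR1high cells than in the CX3CR1- cells.

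Itgb7 (Entrez 16421), the beta chain of both mucosal integrins, had signals of 262 in the CX3CR1high cells, 2275 in the CX3CR1- cells, 1126 in the CD11b+ cells and 3397 in the DCs. All 4 signals were above the floor, and the CX3CR1high cells were the low population. Itgb7 was 8.68-fold lower there than in the CX3CR1- cells, 4.30-fold lower than in the CD11b+ cells and 13.0-fold lower than in the DCs. The CX3CR1- cells and the DCs differed by 1.49-fold. In the CD11b+ cells Itgb7 thus stood at 1126 while Itgae, one of its alpha partners, was under the floor. Of the 10 members, Itgb7 was the one at least 4-fold apart between the CX3CR1high cells and the CD11b+ cells.

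Itga4 (Entrez 16401), which guides leukocytes to VCAM-1 and MAdCAM-1, followed the same order at lower signals. Its brightest probe set gave 91.3 in the CX3CR1high cells, 278 in the CX3CR1- cells, 152 in the CD11b+ cells and 372 in the DCs. It was at least 2.71-fold lower in the CX3CR1high cells than in the CX3CR1- cells and at least 3.61-fold lower than in the DCs, and 2.45-fold lower in the CD11b+ cells than in the DCs. A further set gave 8.31, 69.5, 47.9 and 150.0 in this order of populations and a last one was under the floor on all arrays. With the mean over the 3 sets every Itga4 ratio that could be formed was within 2-fold, since most of these signals lie under the floor.

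T, NK and innate lymphoid cells and mast cells can also carry Itgae, Itgb7 and Itga4. The summed signal of 13 measured T, NK and innate lymphoid markers was 3522 in the CX3CR1high cells, 8332 in the CX3CR1- cells, 2727 in the CD11b+ cells and 1869 in the DCs. The T cell receptor chains Cd3d, Cd3e and Cd3g were under the floor on all 4 arrays, and Il7r made up most of each sum (7311 for the CX3CR1- cells and 1168 for the DCs). Cd8a, a chain carried by T cells and by a class of DCs, was under the floor in the CX3CR1high cells (11.1), the CX3CR1- cells (17.9) and the CD11b+ cells (24.7) and above it in the DCs (201), where Itgae was highest. At or above the floor were 4, 4, 5 and 3 of these markers. Of the mast cell markers 1 of 10, Hdc, reached the floor on each array, and these markers summed to 340, 1566, 2411 and 277. B and plasma cell markers summed to 30611, 20159, 49948 and 20438 in the same order, with 3, 3, 4 and 2 of 6 at or above the floor. Eosinophil markers summed to 183, 857, 420 and 125, with 0, 3, 2 and 0 of 5 at or above the floor. The part of lymphoid, plasma cell, eosinophil and mast cell RNA in the signals of Itgae, Itgb7 and Itga4 was not tested.

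Itgb1 (Entrez 16412), the most widely shared beta chain, was level. Its brightest set had signals of 1079 in the CX3CR1high cells, 833 in the CX3CR1- cells, 962 in the CD11b+ cells and 1013 in the DCs. These lay within 1.30-fold of each other. A second bright set gave 915, 794, 781 and 1321 in the same order, and it put the DCs instead of the CX3CR1high cells on top. The other 4 sets of Itgb1 were under the floor on at least 3 of the 4 arrays.

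Itgav and Itgb5, whose proteins pair as a receptor for vitronectin, were highest in the CX3CR1high cells and lowest in the DCs. Itgav (Entrez 16410) had signals of 5355 in the CX3CR1high cells, 3438 in the CX3CR1- cells, 2989 in the CD11b+ cells and 1962 in the DCs. It was 2.73-fold higher in the CX3CR1high cells than in the DCs, and neighbours in this order were 1.15-fold to 1.56-fold apart. A second Itgav set was above the floor in the CX3CR1high cells (179) and the CD11b+ cells (105) and under it in the CX3CR1- cells (79.8) and the DCs (83.1). With the mean over the 3 Itgav sets the ratio over the DCs was under 2-fold (log2 ratio 0.86).

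Itgb5 (Entrez 16419) had the widest range of the members measured on all 4 arrays. The probe set used for ratios gave 2469 in the CX3CR1high cells, 1030.4 in the CX3CR1- cells, 1513 in the CD11b+ cells and 146 in the DCs. Itgb5 was 16.9-fold higher in the CX3CR1high cells than in the DCs, 10.4-fold higher in the CD11b+ cells and 7.07-fold higher in the CX3CR1- cells. Over the CX3CR1- cells the CX3CR1high cells were 2.40-fold higher, and over the CD11b+ cells 1.63-fold.

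All 4 Itgb5 sets gave the same order of populations. In the CX3CR1high cells the 3 further sets gave 1308, 2193 and 1862, against 55.1, 330 and 104 in the DCs. The sets with 2193 and 1862 are of the _x_at type, whose probes may bind other transcripts too, so they were not used for ratios, although the set with 2193 had the highest mean log2 signal of the gene. The ratios of the 3 further sets were at least 12.7-fold, 6.64-fold and 17.9-fold. Over the CX3CR1- cells they gave 3.11-fold, 1.72-fold and 1.60-fold, so that ratio lay on either side of 2-fold depending on the probe set.

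Epithelial and stromal cells can carry Itgav, Itgb5 and Itgb1. The summed signal of 11 measured epithelial markers was 17031 in the CX3CR1high cells, 6786 in the CX3CR1- cells, 3066 in the CD11b+ cells and 4263 in the DCs, with 11, 9, 8 and 9 of them at or above the floor. The sum of 14 fibroblast, muscle and endothelial markers was 19467, 25398, 66823 and 6469, with 13, 13, 14 and 9 at or above the floor. The DCs had the lowest stromal sum and the lowest Itgav and Itgb5. The CD11b+ cells had the highest stromal sum, the second highest Itgb5 and the second lowest Itgav. The CX3CR1high cells had the highest epithelial sum and the highest Itgav and Itgb5, and the CD11b+ cells had the lowest epithelial sum. The epithelial beta chains Itgb4 and Itgb6 were under the floor on all 4 arrays. The part of epithelial and stromal RNA in the signals of Itgav, Itgb5 and Itgb1 was not tested. In sorted pools, fewer cells that express a gene and less RNA per cell cannot be told apart.

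**Figure D2:**
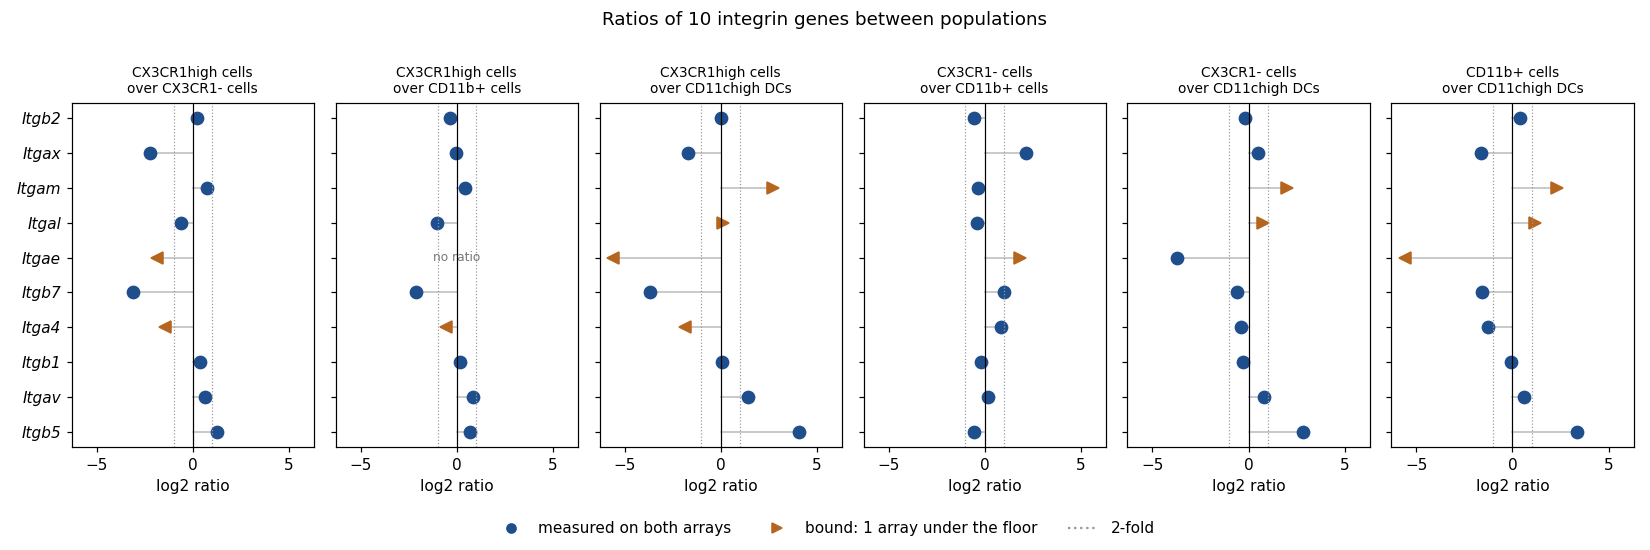
Log2 ratio of each integrin gene for the 6 pairs of populations, 1 array each, from the probe set used for ratios; blue circles were measured on both arrays, brown arrowheads are bounds because 1 array was under the floor, and dotted lines mark 2-fold. Itgb5 lies right and Itgb7 and Itgae left of the lines in the CX3CR1high cells over DCs, while Itgb2 and Itgb1 lie between the lines in every pair.

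The members were next counted over the 6 pairs at a limit of 2-fold. Against the DCs, the CX3CR1high cells had 3 members higher (Itgam, Itgav, Itgb5) and 4 lower (Itgax, Itgae, Itgb7, Itga4) of 10, where 17.4% of all genes with a ratio were higher and 10.2% lower. Against the CX3CR1- cells, 1 was higher (Itgb5) and 4 were lower (Itgax, Itgae, Itgb7, Itga4), where 8.56% of all genes were higher and 6.54% lower. Against the CD11b+ cells, 0 were higher and 2 lower (Itgb7, Itgal) of 9 with a ratio, where 4.66% and 5.83% of all genes were.

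In the CX3CR1- cells, 3 of 10 members were higher and 0 lower than in the CD11b+ cells (Itgax, Itgae and Itgb7, the last at 2.02-fold), beside 3.55% and 5.19% of all genes. Against the DCs, 2 were higher (Itgam, Itgb5) and 1 lower (Itgae), beside 13.7% and 8.7%. The CD11b+ cells against the DCs had 3 higher (Itgam, Itgal, Itgb5) and 4 lower (Itgax, Itgae, Itgb7, Itga4), beside 17% and 10.4%. Median log2 ratios of the members ran from -0.21 to 0.17, and those of all genes from -0.06 to 0.07. Without Itgax, Itgam and Itgae, which the sort used or may have used, 4 of 7 members were at least 2-fold apart in either direction between CX3CR1high cells and DCs, beside 27.5% of all genes. Likewise 3 of 7 were between CX3CR1high and CX3CR1- cells (15.1% of all genes), 2 of 7 between CX3CR1high and CD11b+ cells (10.5%), 1 of 7 between CX3CR1- and CD11b+ cells (8.74%), 1 of 7 between CX3CR1- cells and DCs (22.4%) and 4 of 7 between CD11b+ cells and DCs (27.4%). Some of these calls depend on the processing. With the mean over probe sets, Itga4 was not called in any pair, and Itgav was not called between CX3CR1high cells and DCs (log2 ratio 0.86). Itgal fell short of 2-fold between CD11b+ cells and DCs with equal medians (0.93) or quantile normalization (0.95). Between CX3CR1high and CD11b+ cells it did so with a pseudocount (-0.92). Itgb5 between CX3CR1high and CX3CR1- cells lay on either side of 2-fold depending on the probe set. The list was chosen with such values known, and pairs that share an array are not independent.

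Over the 4 populations, 2 members (Itgb2 and Itgb1) stayed within 2-fold, Itgav spanned 2.73-fold, Itgal at least 2.28-fold and Itga4 at least 3.61-fold. The 5 others spanned at least 4-fold, namely Itgb7 and Itgb5 and, used or possibly used by the sort, Itgax, Itgam and Itgae. The share of all genes with such a span is not given, so this count is no finding about the members. The CX3CR1high cells had the highest signal for 4 members (Itgam, Itgb1, Itgav, Itgb5) and the lowest for 3 (Itgax, Itgb7, Itga4). The DCs had the highest for 3 (Itgae, Itgb7, Itga4) and the lowest for 4 (Itgam, Itgal, Itgav, Itgb5). Some of these ranks are ties or lie under the floor. Itgax was 1.02-fold apart between CX3CR1high and CD11b+ cells, and Itgb1 stayed within 1.30-fold. Itga4 in the CX3CR1high cells and Itgam and Itgal in the DCs were under the floor. As a measure of likeness, the root mean square difference of log2 signals was taken after centring each gene on its mean over the 4 populations. Among partners measured on all 4 arrays, Itgax and Itgb2 were 1.15 apart and Itgav and Itgb5 1.11. Itgax was nearer to Itgb7 (0.86), with which it does not pair, than to Itgb2. Since Itgax is a gene of the sort, its distances are no finding between populations. Itgam, Itgae, Itga4 and Itgal had signals under the floor, and their distances, which would depend on the floor, are not given.

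The genes of the array most like each member were found by the same measure among 4740 genes, for the 5 members that spanned at least 4-fold, with signals under the floor set to it. Nearest to Itgb5 were the phosphodiesterase Pde2a, the IgG receptor Fcgr3 (0.11) and the complement gene C1qb (0.13). Pde2a was under the floor in the DCs (73.4), so its distance depends on the floor. For the sort gene Itgam, under the floor in the DCs, the rule named the lipid carrier Apoe, the endothelial diaphragm gene Plvap and the sialic acid receptor Cd33, a choice that rests on the floor value. C1qb, for example, had signals of 25663 in the CX3CR1high cells, 11835 in the CX3CR1- cells, 15710 in the CD11b+ cells and 1293 in the DCs, the order of Itgb5.

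The mucosal chains and Itgax had other neighbours. Nearest to Itgb7 were the leukocyte actin-binding protein Lsp1 (0.14), the aspartic protease Napsa (0.17) and the calponin Cnn2 (0.20). Napsa had signals of 352 in the CX3CR1high cells, 4207 in the CX3CR1- cells, 1703 in the CD11b+ cells and 5582 in the DCs. For Itgae, under the floor in the CX3CR1high and CD11b+ cells, the rule named the actin-severing protein Scin, the lectin-like receptor Klrk1 and Hepacam2, again with the floor in place of signals. Nearest to the sort gene Itgax were the decoy receptor Il1r2 (0.12), the cyclin Ccnd2 (0.25) and the small GTPase Rras2 (0.28). With 4 values a gene these are descriptions of profiles.

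Of 17 other integrin subunits, 12 were measured and 5 reached the floor on at least 1 array. Itga9, which pairs with Itgb1 and binds tenascin, had signals of 736 in the CX3CR1high cells, 263 in the CX3CR1- cells, 203 in the CD11b+ cells and 37.9 in the DCs. It was 2.80-fold, 3.64-fold and at least 7.16-fold higher in the CX3CR1high cells, and a second set gave the same direction (240.4, 156, 95.9 and 28.6). Itga6, a laminin receptor chain, was highest in the CX3CR1high cells too, with 629, 227, 324 and 205 in the same order, 2.77-fold over the CX3CR1- cells and 3.07-fold over the DCs. Another Itga6 set was above the floor in the CX3CR1high cells only (124). Epithelium is rich in Itga6, and the epithelial sum was highest on the same array, a relation that was not tested.

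Itga3, another laminin receptor chain, ran the other way, with 196 in the CX3CR1high cells, 287 in the CX3CR1- cells, 88.1 in the CD11b+ cells and 624 in the DCs. It was 3.19-fold lower in the CX3CR1high cells than in the DCs, and its further sets were under the floor on all 4 arrays. Itga2b, the platelet fibrinogen receptor chain, had signals of 103 in the CX3CR1high cells, 315 in the CX3CR1- cells, 135 in the CD11b+ cells and 151 in the DCs, while its partner Itgb3 was under the floor on all 4 arrays. Itga5, the fibronectin receptor chain, stayed within 2-fold (273, 330, 417 and 212 in the order of the CX3CR1high cells, CX3CR1- cells, CD11b+ cells and DCs). Itga2, Itga7, Itga8 and Itgb2l were under the floor everywhere, and Itga1, Itga10, Itga11, Itgad and Itgb8 were not measured by a single-gene probe set.

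Genes for the ligands of these integrins were compared next, 20 of 22 measured. Against the DCs, 6 of 15 with a ratio were higher in the CX3CR1high cells and 0 lower, beside 17.4% and 10.2% of all genes. The 6 were Vcam1 and the matrix genes Fn1, Thbs1, Tnc, Postn and Ccn1. The stromal marker sum was 19467 in the CX3CR1high cells against 6469 in the DCs, and its part in these signals was not tested. Vcam1, which binds Itga4 with Itgb1, stood at 7843 in the CX3CR1high cells, 1847 in the CX3CR1- cells, 2661 in the CD11b+ cells and 530 in the DCs, so it was 14.8-fold higher in the CX3CR1high cells than in the DCs, while Itga4 was lowest in the CX3CR1high cells. Icam1, the ligand of the CD18 integrins, was within 2-fold (6996, 5306, 6372 and 3826). Cdh1, which encodes the E-cadherin bound by Itgae with Itgb7, was 640.0, 800.0, 143 and 496, lowest in the CD11b+ cells. The epithelial marker sum was 17031, 6786, 3066 and 4263 in the same order, and its part in the Cdh1 signal was not tested. The matrix ligands Fn1 (1753 in the CX3CR1high cells and 8235 in the CD11b+ cells), Tnc (287 and 1035), Postn (2111 and 7395) and Ccn1 (347 and 1491) were 3.50-fold to 4.70-fold lower in the CX3CR1high cells than in the CD11b+ cells. There 2 of 15 ligand genes were higher and 6 lower, beside 4.66% and 5.83% of all genes, and the stromal marker sum was 19467 against 66823. Mfge8, which bridges dying cells to Itgav with Itgb5, was 476 in the CX3CR1high cells and 953 in the CD11b+ cells, 2.0-fold lower, and 290 in the DCs. Thbs1, another Itgav ligand, was 7048, 5979, 15215 and 327, which made it 21.5-fold higher in the CX3CR1high cells than in the DCs.

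Of 36 genes that switch integrins on or tie them to actin, 30 were measured and 28 had a ratio in each pair. Talin Tln1, which opens the integrin head, stood at 2034 in the CX3CR1high cells, 2937 in the CX3CR1- cells, 2877 in the CD11b+ cells and 1185 in the DCs. Kindlin Fermt3 of blood cells (6579, 7654, 6924 and 4285) and the GTPase Rap1b (16348, 16105, 18563 and 11422) were within 2-fold over all populations. The CX3CR1high cells had 1 of 28 higher and 7 lower than the CX3CR1- cells, beside 8.56% and 6.54% of all genes. Against the CD11b+ cells they also had 1 higher and 7 lower, beside 4.66% and 5.83%. Lower in both were Ptk2b, a relative of focal adhesion kinase (390.0 against 1385 and 1164), the parvin Parvg (140 against 430 and 302), zyxin Zyx (692 against 1629 and 1683), filamin Flna (1073 against 2909 and 2579), Cytip, which restrains LFA-1 adhesion (14637 against 31105 and 30266), and the Src-family kinase Fgr (358 against 1296 and 1531). Higher in both was the clathrin adaptor Dab2, which takes integrins up from the surface, at 10032 against 2889 and 3581. Dab2 was 3.47-fold and 2.80-fold higher there, and 16.7-fold higher than in the DCs (602).

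Against the DCs the same list was split, with 5 higher and 6 lower of 28 in the CX3CR1high cells, beside 17.4% and 10.2% of all genes, so the share higher was near the background. Higher besides Dab2 were the adaptor Fyb1 (2403 against 436), paxillin Pxn, Actn4 and Fermt2. Lower were Parvg (6.80-fold), the actinin Actn1 (791 against 3626), Zyx, vinculin Vcl, Cd47 and Ptk2b. Its median log2 ratios in the CX3CR1high cells were -0.24 against the CX3CR1- cells, -0.29 against the CD11b+ cells and 0.18 against the DCs, beside 0.02, -0.02 and 0.02 for all genes.

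**Figure D3:**
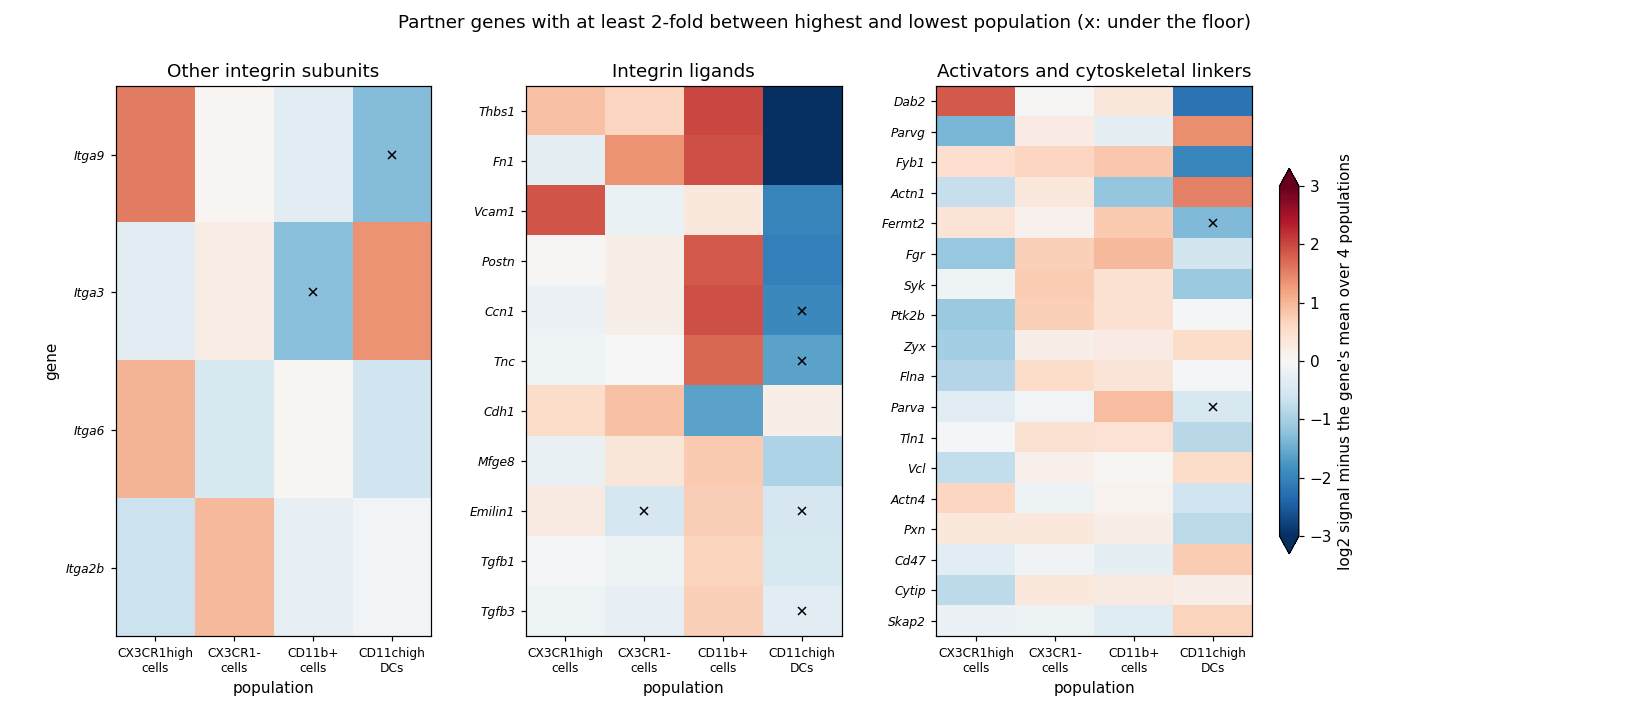
Colour gives the log2 signal, with signals under the floor set to it, minus the gene's mean over 4 populations, 1 array each, for listed genes at least 2-fold apart between highest and lowest population: 4 other integrin subunits, 11 ligands and 18 activators or linkers; crosses mark signals under the floor. Itga9, Vcam1 and Dab2 are highest in the CX3CR1high cells, and the matrix ligands Fn1, Thbs1, Postn, Ccn1 and Tnc in the CD11b+ cells.

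TGF-beta acts on CD103 expression, and integrins with Itgav release TGF-beta from its latent form. Of 14 genes of this pathway 13 were measured. The receptor gene Tgfbr1 was 4635 in the CX3CR1high cells, 3267 in the CX3CR1- cells, 3604 in the CD11b+ cells and 1044 in the DCs, and Tgfbr2 was 5605, 2317, 3252 and 1831. Both were higher in the CX3CR1high cells than in the DCs, 4.44-fold and 3.06-fold, and lowest in the DCs, where Itgae was highest. Of 10 with a ratio these 2 were higher and 0 lower there, beside 17.4% and 10.2% of all genes, a share near the background. Tgfb1 itself was within 2-fold between the CX3CR1high cells and each other population (944, 873, 1523 and 689).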

How the data were processed

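RNA from 4 sorted populations was labelled with biotin and hybridised to 1 Affymetrix 3′ array each, per the labels' protocols. The authors deposited 1 linear intensity for each probe set, and the tool MAS5 is named per the submitters' processing notes; version and detection calls are not given in the sources used here. The mean trimmed by 2% at each end was 500 on every array. No further normalization was applied. Of 22690 probe sets, 64 were controls, 20380 named 1 gene, 691 several and 1555 none, and those naming 1 gene were used. Ratios use the brightest probe set of a gene by mean log2 signal over the arrays, with _x_at sets used where there was no other. Signals under the pooled median (103) were set to it. A gene was called at 2-fold or more. No test was possible with 1 array a population. All members and their probe sets are named, then other subunits, and list members at least 2-fold apart or bearing on a member. The members and lists were chosen with earlier results of these data known. Platelet markers were the list not described in the results. Their summed signals were 481, 276, 241 and 159 in the order CX3CR1high cells, CX3CR1- cells, CD11b+ cells and DCs. Calls were tested on simulated data. The work used Python 3.11.15, pandas 2.3.3 and NumPy 2.4.6. The 9 alternatives changed the floor, the scaling, the probe sets or the call limit.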

Additional observations from a re-analysis of the deposited data

How the results depend on the processing

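No paired analysis was possible because each population has 1 array and the labels give no replicate numbers. Under 8 alternatives 450 member ratios were recomputed. Of these, 415 moved by less than the spread between probe sets, 35 moved by more and 0 changed sign from a call. The floor at the pooled 75th percentile left 44 ratios and the mean over probe sets 52, against 59 at each other setting. Ratios that could not be formed are not among the 450. Counts of members at least 2-fold apart, Itgax, Itgam and Itgae included, kept within 1.5 times under 45 of 54 recomputations. With the floor at the pooled 75th percentile they were 3 in place of 5 for CX3CR1high cells over CX3CR1- cells, 1 in place of 2 over CD11b+ cells, and 4 in place of 7 for CD11b+ cells over DCs; there Itgam, called at the main floor, was within 2-fold of the DCs in the CX3CR1high cells (log2 ratio 0.61) and the CD11b+ cells (0.18). These shifts follow from the floor itself, since signals of 453 or less then carry no difference. A pseudocount in place of the floor gave 1 in place of 2 for CX3CR1high cells over CD11b+ cells. At a limit of 4-fold the count for CX3CR1high cells was 2 over CX3CR1- cells (Itgax, Itgb7) and 1 over CD11b+ cells (Itgb7). Over DCs it was 4 (Itgam, Itgae, Itgb7, Itgb5). The count was 1 for CX3CR1- cells over CD11b+ cells (Itgax) and 3 for CD11b+ cells over DCs (Itgam, Itgae, Itgb5). Outside Itgax, Itgam and Itgae, which the sort used or may have used, these were Itgb7 and Itgb5. Counts at these other settings have no share of all genes beside them and are no finding about the members. Quantile normalization and equal medians moved no member ratio by more than the spread between probe sets, although equal medians put the median gene at -0.27 (log2) in CX3CR1high cells over DCs, against 0.02 on the authors' scale. Signals close to the floor (Itgal, Itga4) limit what these arrays can tell apart.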
